A study of Mus musculus with 16 samples.

Results

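Livers of mice given Dicretin were compared with livers of mice given Semaglutide, using 8 of the 16 libraries of the series. The Dicretin libraries carry the animal numbers 14, 23, 64 and 65, the Semaglutide libraries carry 11, 15, 31 and 51, and the groups were taken from the sample titles. All animals were C57BL/6 mice aged 22 weeks with obesity induced by diet and with hepatic steatosis, and the vehicle and diet controls shared that background. Semaglutide activates the glucagon-like peptide 1 receptor (GLP1R), whereas Dicretin activates both GLP1R and the glucagon receptor (GCGR), so that the comparison addresses livers that differ in the second activity. The labels give no dose, duration of treatment, sex or body weight. The 4 saline libraries and the 4 libraries of mice brought to a like weight loss by calorie restriction are given beside the main values as reference levels. Poly(A) RNA was sequenced with a directional kit, 1 library per numbered animal. The p-values rest on the spread between animals within groups, estimated over all 16 libraries.

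As background, the glucagon receptor of hepatocytes couples through the stimulatory G protein to adenylyl cyclase. The cyclic AMP that is formed activates protein kinase A, which phosphorylates the transcription factor CREB. Glucagon is known for raising hepatic glucose output, amino acid breakdown and urea formation. GLP1R acts mainly in the pancreas and the nervous system and is hardly transcribed in hepatocytes. In these data Glp1r and the receptor gene Gipr each had 0 counts in the 8 libraries, and Glp1r had 3 counts over all 16.

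Library totals lay between 14.71 and 15.654 M counts in Semaglutide and between 12.229 and 16.66 M in Dicretin. Levels are in CPM, counts scaled to the library total with TMM factors, and libraries are listed in the order 14, 23, 64, 65 for Dicretin and 11, 15, 31, 51 for Semaglutide. Fold changes are log2 values of Dicretin minus Semaglutide ± SE, means are ± SD over 4 libraries, and p-values are those of edgeR's quasi-likelihood model, adjusted by Benjamini-Hochberg over 12910 genes. The first principal component of the 8 libraries held 52.47% of the variance, with Dicretin between 46.09 and 56.1 and Semaglutide between -52.98 and -47.61. The component after it held 18.97% and spread both groups, from Semaglutide 11 at 47.32 and Dicretin 65 at 37.2 to Dicretin 14 at -45.63. Semaglutide 11 and Dicretin 14 also differed from their groups by gene length. Against the mean of all libraries, the shortest genes (up to 2674 bp of exon) had a median log2 deviation of 0.45 in Semaglutide 11 and -0.26 in Dicretin 14, and the longest genes (from 6728 bp) had -0.34 and 0.24. The other 6 libraries compared here lay between -0.07 and 0.175 for short genes and between -0.21 and 0.10 for long genes. Values with both libraries left out are given for the named genes whose call that changed and for list counts that it moved by over 1.5 times, apart from most counts of 1 or 2 members.

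**Figure D1:**
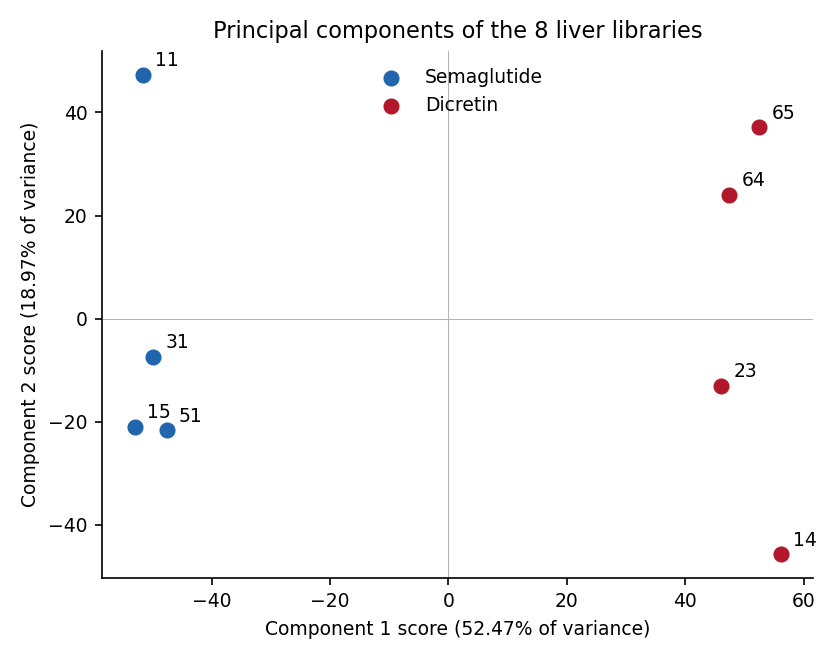
Scores of the 8 libraries on the first (x axis, 52.47% of variance) and the other plotted principal component (y axis, 18.97%) of log2 CPM; each point is 1 library with its animal number. Drug separates the libraries along x, while Semaglutide 11 (47.32) and Dicretin 14 (-45.63) lie at opposite ends along y.

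The livers differed at 4128 of the 12910 genes tested (32.0%), of which 1916 were higher (14.8%) and 2212 lower (17.1%) in Dicretin. The counts of list members below are to be read beside these shares, 14.8% higher and 17.1% lower. At 2-fold or more, 787 genes were higher (6.10%) and 1125 lower (8.71%), and 226 and 338 genes differed by at least 4-fold. The libraries of the groups did not overlap for 3384 genes (26.2%). Of the 787 genes at least 2-fold higher in Dicretin, the saline mean lay nearer to Semaglutide for 643 (81.7%), and of the 1125 lower genes it did so for 1003 (89.2%). The calorie-restricted mean was nearer to Semaglutide for 609 (77.4%) and 901 (80.1%) of the same genes. Values against saline or calorie restriction below share the Dicretin and Semaglutide libraries with the main comparison. With Semaglutide 11 and Dicretin 14 both left out, 4553 of the genes then tested passed, and 3258 of the 4128 (78.9%) kept their call, each in the same direction.

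**Figure D2:**
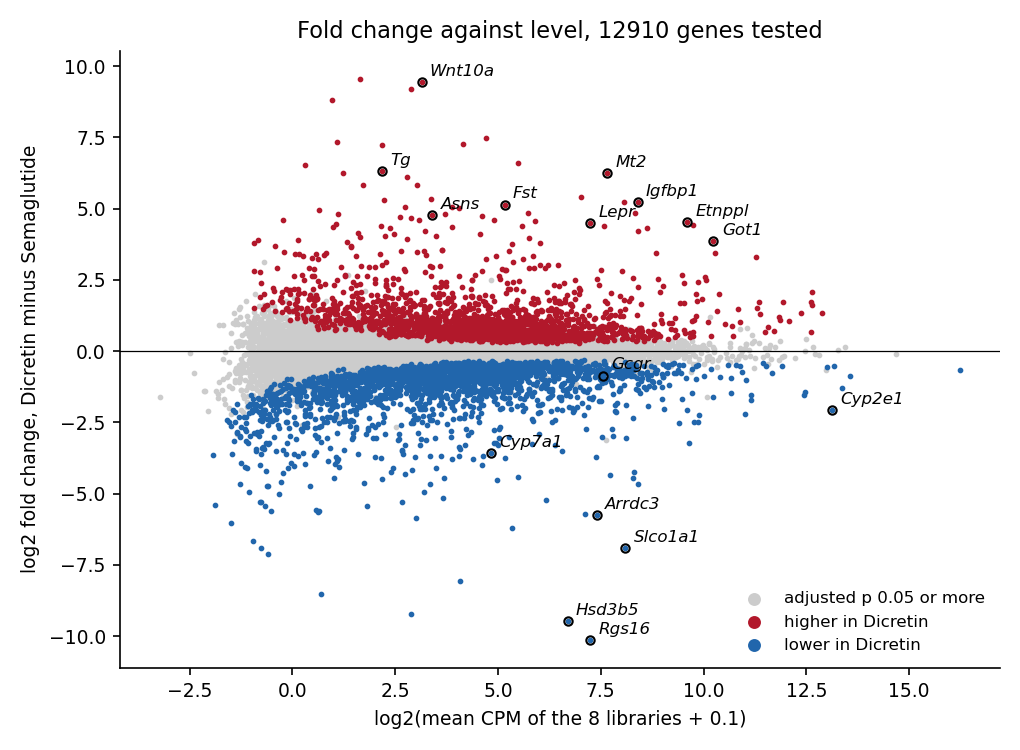
Each point is 1 of 12910 genes, with its mean level over the 8 libraries on the x axis (log2 of CPM + 0.1) and the log2 fold change of Dicretin minus Semaglutide on the y axis. Red genes (1916) were higher and blue genes (2212) lower in Dicretin at an adjusted p under 0.05, grey genes did not pass, and circled genes are described in the text.

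The glucagon receptor itself was lower in Dicretin livers. Gcgr stood at 102, 119, 151 and 159 CPM in Dicretin and at 305, 228, 207 and 224 CPM in Semaglutide, a log2 fold change of -0.86 ± 0.15 (adjusted p = 0.000336). Every Dicretin library lay below every Semaglutide library. Saline stood at 225 ± 12.2 CPM, and the difference of Semaglutide from saline did not pass (0.10, adjusted p = 0.778). Among 27 tested genes for the receptor, its G protein, cyclases, phosphodiesterases and protein kinase A, 6 were higher (22.2%) and 4 lower (14.8%), beside 14.8% and 17.1% of all genes tested, with a median of 0.09 against -0.01 over all genes tested. The cyclic AMP phosphodiesterases Pde4b and Pde4d rose by 1.62 ± 0.28 and 1.92 ± 0.32 (adjusted p = 0.000232 and 0.000158), whereas their relative Pde4c fell from 11.5 ± 1.06 to 2.74 ± 1.08 CPM (-2.09 ± 0.30, adjusted p = 3.56e-05). Prkar1a, which encodes a regulatory subunit of protein kinase A, rose by 0.63 ± 0.11 (adjusted p = 0.000243). The stimulatory G protein gene Gnas and the catalytic subunit gene Prkaca did not pass.

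Most genes listed as cyclic AMP-responsive were higher in Dicretin. Of 24 tested members of that list, 15 were higher and 1 was lower, and the median log2 fold change was 1.77. That is 62.5% higher, beside 14.8% over all genes tested. This and the other lists were written with earlier results of these data known. Their shares are therefore descriptions of the chosen members and not a test. Ppargc1a, which encodes a coactivator of gluconeogenic and mitochondrial transcription, stood at 78.3, 53.3, 60.5 and 64.5 CPM in Dicretin and at 8.4, 8.91, 8.75 and 9.27 CPM in Semaglutide (2.86 ± 0.16, adjusted p = 1.05e-09). The lowest Dicretin library was far above the highest Semaglutide library, and the Semaglutide values were close to saline at 9.02 ± 1.01 CPM.

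The nuclear receptor gene Nr4a1, an immediate early gene, was measured at 28, 28.5, 25.2 and 18.9 CPM against 1.05, 1.1, 0.778 and 0.626 CPM (4.82 ± 0.29, adjusted p = 1.83e-09). Crem, which encodes an activator and repressor at cyclic AMP response elements, rose from 19.1 ± 6.22 to 156 ± 27.8 CPM (3.03 ± 0.20), and Igfbp1, which encodes a binding protein for insulin-like growth factors, from 17.5 ± 5.98 to 655 ± 259.5 CPM (5.22 ± 0.38). Groups did not overlap for any of these genes. The leptin receptor gene Lepr stood at 278, 327, 290.3 and 258 CPM in Dicretin and at 8.7, 9.8, 9.53 and 23.4 CPM in Semaglutide (4.48 ± 0.34, adjusted p = 1.96e-08). Its level was graded across the drugs, since saline lay lower still at 2.36 ± 1.1 CPM and Semaglutide differed from saline by 2.42 (adjusted p = 0.000564). Not all members moved: Creb1, Crtc2 and Junb did not pass, and Cited2 was lower. The immediate early gene Fos did not pass in edgeR's test with all libraries (1.47, adjusted p = 0.0599). It passed with all libraries by DESeq2 (1.46, adjusted p = 0.0407), by limma-voom (1.9, adjusted p = 0.0218) and with the trend on gene length removed (1.66, adjusted p = 0.0292). By edgeR it also passed without Semaglutide 11 (2.44, adjusted p = 0.00356), without Dicretin 64 (1.68, adjusted p = 0.042) and with Semaglutide 11 and Dicretin 14 both left out (1.87, adjusted p = 0.0132). In 12 of the 18 alternative settings Fos did not pass, and its log2 fold change ranged from 0.9 to 2.44 over all 18.

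Promoter sequences of 3 cyclic AMP-responsive genes are shown because the letters of the response element differ between them. They run from 250 bases before to 50 bases after the RefSeq start (GRCm38.p6) and are printed 5′ to 3′ on the gene's strand, with capitals on every TGACG, or CGTCA for the other strand, including those within the full element TGACGTCA. Dusp1, a phosphatase gene that the naming rule did not pick and that was chosen after its values were seen, rose by 2.52 ± 0.25 (adjusted p = 6.23e-07) and holds the full element once. Nr4a1 (chr15:101266596-101266895, plus strand) holds the core TGACG 4 times, Ppargc1a (chr5:51567676-51567975, minus strand) holds it once, and Dusp1 lies at chr17:26508423-26508722 on the minus strand.
Nr4a1: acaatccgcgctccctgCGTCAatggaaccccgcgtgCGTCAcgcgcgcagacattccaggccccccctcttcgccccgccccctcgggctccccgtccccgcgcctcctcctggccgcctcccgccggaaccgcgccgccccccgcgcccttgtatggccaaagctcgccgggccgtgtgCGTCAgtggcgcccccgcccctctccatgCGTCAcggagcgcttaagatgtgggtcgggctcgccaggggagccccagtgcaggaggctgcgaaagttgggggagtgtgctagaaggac
Ppargc1a: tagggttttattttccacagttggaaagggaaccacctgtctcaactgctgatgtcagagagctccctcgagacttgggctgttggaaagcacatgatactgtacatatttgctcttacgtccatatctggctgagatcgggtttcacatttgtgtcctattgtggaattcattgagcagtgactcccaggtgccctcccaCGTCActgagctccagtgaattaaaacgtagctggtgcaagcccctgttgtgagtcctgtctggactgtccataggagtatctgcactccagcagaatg
Dusp1: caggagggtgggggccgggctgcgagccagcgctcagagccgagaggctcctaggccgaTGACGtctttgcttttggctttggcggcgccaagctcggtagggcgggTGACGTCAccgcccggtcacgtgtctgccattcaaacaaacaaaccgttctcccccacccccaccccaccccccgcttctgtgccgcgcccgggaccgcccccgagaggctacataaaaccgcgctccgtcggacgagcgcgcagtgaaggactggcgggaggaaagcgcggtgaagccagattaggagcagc
Of the 13 list members higher in Dicretin that had a promoter in the table, 1 held the full element and 9 held the core TGACG. Some genes have several windows, and these were 1 and 9 of 17 windows. Of the 8 other members with a promoter there, 1 held the full element and 5 the core, in 1 and 6 of 10 windows. The member with the full element was Areg, which also held the core. Areg had 5 counts in the 8 libraries, fell below the filter and was not tested. Among tested members that were not higher, some held the core, such as Per1 and Junb, and none held the full element. Over all 32851 promoter windows the full element was found in 1.79% and the core TGACG in 20.8%. These are matches of letters in 300-base windows and not measured binding sites. The members share a short list, and no test was made of the difference.

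**Figure D3:**
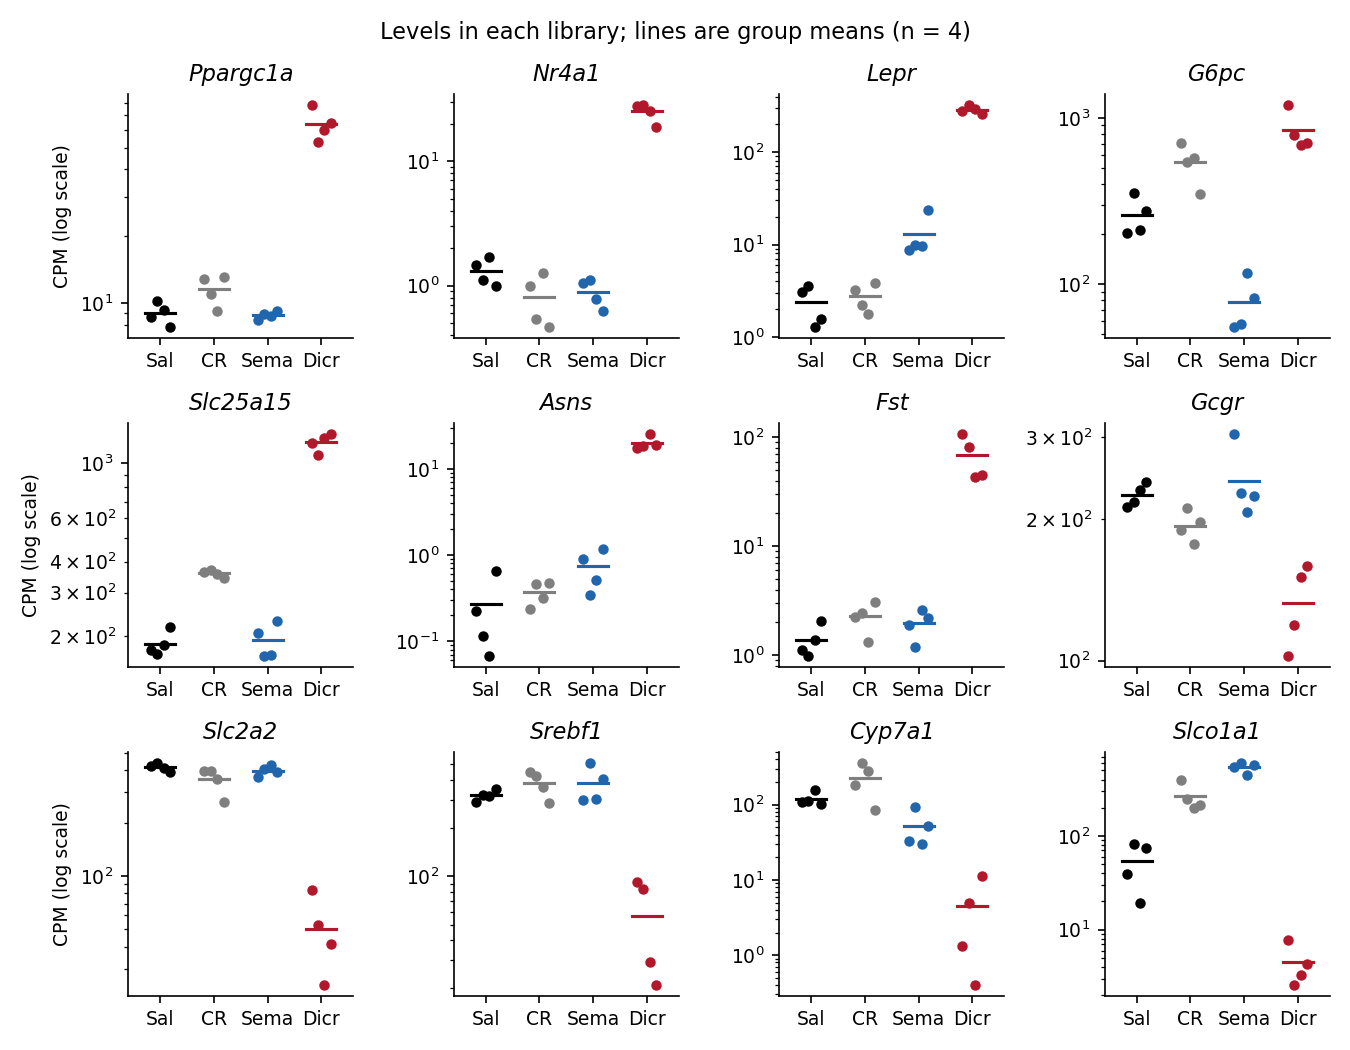
CPM on log axes for 12 genes in each of the 16 libraries; each point is 1 library, horizontal lines are group means of 4, and Sal, CR, Sema and Dicr stand for saline, calorie restricted, Semaglutide and Dicretin. For all 12 genes the Dicretin and Semaglutide libraries do not overlap, and for Slco1a1 and G6pc saline lies between them.

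The glucose output genes G6pc, Pck1 and Got1 rose, while the glucose transporter Slc2a2 fell. Of 20 tested gluconeogenic genes, 9 were higher and 4 lower (median 0.23). G6pc, the glucose-6-phosphatase that releases free glucose, stood at 1202, 794, 683 and 703 CPM against 55.5, 57.2, 116 and 82.5 CPM (3.44 ± 0.29, adjusted p = 8.01e-08), with no overlap. The saline level of 261 ± 69.6 CPM lay between them, since G6pc differed from saline by 1.70 in Dicretin and by -1.74 in Semaglutide (adjusted p = 9.65e-05 and 0.0011). Pck1, which encodes the cytosolic phosphoenolpyruvate carboxykinase, rose from 1810.0 ± 558 to 6030.4 ± 254 CPM (1.74 ± 0.22, adjusted p = 1.08e-05). The aspartate aminotransferase Got1 was measured at 1909, 2246, 2582 and 2318 CPM and at 132, 133, 126 and 239 CPM (3.85 ± 0.29, adjusted p = 2.19e-08). Every Got1 value of Dicretin was far above the highest Semaglutide value, that of library 51. The glucose-6-phosphate transporter Slc37a4, which works beside G6pc, went the opposite way, from 234 ± 39.5 to 59.7 ± 16.2 CPM (-1.97 ± 0.22, adjusted p = 2.34e-06).

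In glucose uptake and glycolysis, 6 of 20 tested genes were higher and 5 lower. The hepatic glucose transporter Slc2a2 stood at 83.1, 53.3, 24.4 and 41.6 CPM in Dicretin and at 364, 405, 427 and 389 CPM in Semaglutide (-2.97 ± 0.26, adjusted p = 1.39e-07). The carbohydrate sensor Mlxipl fell from 194 ± 48.8 to 74.2 ± 7.8 CPM (-1.38 ± 0.22, adjusted p = 9.4e-05). Pfkfb1 and Pfkfb3, which set the level of a sugar phosphate that activates glycolysis, were lower too (-1.12 and -1.97, adjusted p = 7.23e-05 and 9.39e-05). The reversible enzymes Pgk1 and Pgam1 were higher (0.72 and 0.71, adjusted p = 0.000412 and 0.000125). With Dicretin 14 left out, alone or together with Semaglutide 11, 8 members of the list were lower instead of 5. Of 17 tested glycogen genes 3 were higher and 8 lower (median -0.42). The glycogen-targeting phosphatase subunit Ppp1r3g stood at 10.4, 8.56, 20.7 and 19.8 CPM against 2.48, 1.66, 1.04 and 0.188 CPM (3.49 ± 0.66, adjusted p = 0.000634).

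Most genes of nitrogen disposal rose. Of 9 tested urea cycle genes, 7 were higher and 1 lower (median 1.32). Slc25a15, the mitochondrial ornithine carrier, was among the 6 genes with the smallest p of all. It stood at 1216, 1087, 1269 and 1321 CPM in Dicretin and at 206, 167, 167 and 230.1 CPM in Semaglutide (2.67 ± 0.14, adjusted p = 7.93e-10). The spread within either group was small beside that distance. Cps1, which commits ammonia to the cycle, rose from 2825 ± 478 to 5858 ± 595 CPM (1.05 ± 0.17), and Nags, which makes its activator, from 53.5 ± 4.35 to 109 ± 3.45 CPM (1.02 ± 0.11). The argininosuccinate enzymes Ass1 and Asl rose by 1.72 ± 0.22 and 1.76 ± 0.23, and liver glutaminase (Gls2) by 1.68 ± 0.24 (largest adjusted p of these 5 genes 0.000111). Otc was the lower member (-0.46, adjusted p = 0.0422), and its call was lost without Semaglutide 11 (-0.26, adjusted p = 0.163) and without Dicretin 14, 23 or 64 in turn (adjusted p = 0.0961, 0.0539 and 0.0885). With Semaglutide 11 and Dicretin 14 both left out Otc stood at -0.20 (adjusted p = 0.24).

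Of 37 tested genes of amino acid breakdown, 21 were higher and 4 lower (median 0.62). Etnppl, a phospholyase of ethanolamine phosphate, a periportal marker and also among those 6 genes, was measured at 1172, 1140.1, 1953 and 1718 CPM in Dicretin and at 57.6, 53.8, 76.1 and 71.3 CPM in Semaglutide (4.53 ± 0.24, adjusted p = 7.93e-10). Tat, which starts tyrosine breakdown, stood at 3713, 4889.6, 4749 and 4599.8 CPM against 484, 687, 332 and 337 CPM (3.29 ± 0.26, adjusted p = 3.24e-08). For both genes the groups lay apart. Aass of lysine breakdown rose by 2.49 ± 0.16, Acmsd of tryptophan breakdown by 3.22 ± 0.24 and Cth of cysteine formation by 2.43 ± 0.22 (largest adjusted p 2.08e-07). Ddc, which decarboxylates aromatic amino acids, belongs to no list, was another of those 6 and stood at 112, 135, 124 and 128 CPM against 17.7, 12.5, 15.1 and 20.7 CPM (2.92 ± 0.16, adjusted p = 7.93e-10). Prodh2, Amdhd1, Aadat and Mccc2 were the 4 lower members, with log2 fold changes between -0.87 and -0.62.

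Amino acid transporters followed, with 9 of 19 tested members higher and 1 lower (median 0.63). Slc3a2, the heavy chain shared by several exchangers, rose from 31.1 ± 2.38 to 163 ± 30.9 CPM (2.39 ± 0.15, adjusted p = 2.76e-09), the cationic carrier Slc7a2 by 1.81 ± 0.18 and the neutral carrier Slc38a2 by 1.69 ± 0.19. Slc25a47, a mitochondrial carrier of liver that was counted with these transporters, was the only lower member (-1.23 ± 0.17, adjusted p = 2.01e-05).

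Genes of the integrated stress response, the program that the transcription factor ATF4 drives when amino acids are short, were higher as well. Of 20 tested members 14 were higher and 2 lower (median 1.02). Asparagine synthetase (Asns) stood at 17.7, 18.6, 25.7 and 18.9 CPM in Dicretin and at 0.9, 0.345, 0.518 and 1.19 CPM in Semaglutide (4.76 ± 0.37, adjusted p = 2.74e-08). Atf5 rose from 189 ± 23.1 to 787 ± 76 CPM (2.06 ± 0.21), the folate enzyme Mthfd2 from 0.687 ± 0.244 to 5.45 ± 2.5 CPM (2.98 ± 0.42) and the mTORC1 inhibitor Ddit4 from 2.37 ± 1.54 to 16.1 ± 3.92 CPM (2.78 ± 0.35, largest adjusted p of the 3 2.86e-05). Shmt2, another folate enzyme of mitochondria, was lower (-0.86 ± 0.13, adjusted p = 5.23e-05). Among chaperones of the endoplasmic reticulum 3 of 19 tested members were higher and 3 lower, 15.8% each way and near the 14.8% and 17.1% of all genes, with Herpud1 and Xbp1 at -1.04 ± 0.22 and -0.74 ± 0.20 (adjusted p = 0.00153 and 0.00854) and Dnajb9 at 0.80 ± 0.18 (adjusted p = 0.00206). The count of higher chaperones was 1 without Semaglutide 15, Semaglutide 31 or Dicretin 65, and with Semaglutide 11 and Dicretin 14 both left out.

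Promoters of Asns (chr6:7693160-7693459) and of the hormone gene Fgf21 (chr7:45615441-45615740), both on the minus strand of GRCm38.p6, are shown for the composite element TGATGNAA that C/EBP and ATF4 proteins are known to bind. The windows and the source are as above, and capitals mark this element on either strand as well as TGACG or CGTCA.
Asns: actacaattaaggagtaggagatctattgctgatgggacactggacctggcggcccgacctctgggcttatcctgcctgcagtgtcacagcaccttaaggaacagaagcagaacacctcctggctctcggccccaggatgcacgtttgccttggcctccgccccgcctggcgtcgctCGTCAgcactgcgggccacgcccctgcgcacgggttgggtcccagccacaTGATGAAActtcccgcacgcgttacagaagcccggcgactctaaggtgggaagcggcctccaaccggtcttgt
Fgf21: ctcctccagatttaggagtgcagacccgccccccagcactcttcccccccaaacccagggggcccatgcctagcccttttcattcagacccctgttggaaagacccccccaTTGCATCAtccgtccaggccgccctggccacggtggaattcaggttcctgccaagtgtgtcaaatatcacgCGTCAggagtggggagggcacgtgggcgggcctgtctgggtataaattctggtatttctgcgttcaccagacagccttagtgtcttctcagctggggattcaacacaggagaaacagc
Both windows hold the composite element once and the core TGACG once. Of the 14 list members higher in Dicretin that had a promoter in the table, 4 held the composite element. Some genes have several windows, and these members held it in 4 of their 18 windows, beside 3.97% of all 32851 windows. Of the 8 other members 4 held it too, in 4 of 8 windows. Of these 4, Trib3 did not pass and Chac1 was lower. Pycr1 and Slc7a11 had 40 and 6 counts in the 8 libraries, fell below the filter and were not tested. Phgdh, a further member of the 8, was below the filter as well (65 counts).

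Several secreted factors differed. Of 25 tested hormones and binding proteins, 8 were higher and 5 lower, and with Semaglutide 11 and Dicretin 14 both left out 11 were higher and 3 lower. Follistatin (Fst), which binds activins, stood at 108, 81.7, 43.1 and 44.7 CPM in Dicretin and at 1.88, 1.17, 2.59 and 2.19 CPM in Semaglutide (5.14 ± 0.35, adjusted p = 6.39e-09). Fgf21 was measured at 5.14, 21.1, 33.1 and 31.3 CPM against 2.55, 1.52, 2.14 and 1.44 CPM (3.56 ± 0.67, adjusted p = 0.000719). Dicretin 14 was the lowest of its group for Fgf21, although still above every Semaglutide library. Gdf15, a hormone that lowers food intake, rose from 4.25 ± 1.3 to 17.1 ± 6.71 CPM (adjusted p = 0.00236), and angiotensinogen (Agt) from 714 ± 17.6 to 1875 ± 506 CPM (1.39 ± 0.18, adjusted p = 1.5e-05). The chemotactic factor Lect2 fell from 225 ± 72.2 to 72.2 ± 12.8 CPM (-1.64 ± 0.22, adjusted p = 1.73e-05).

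Lipid synthesis genes passed in both directions, and Dicretin 14 changed the call of several of them. Of 22 tested lipogenic genes 5 were higher (22.7%) and 6 lower (27.3%), beside 14.8% and 17.1% of all genes tested (median 0.08). The regulator Srebf1 stood at 91.8, 83.8, 29.2 and 21.1 CPM in Dicretin and at 301, 511, 304 and 404 CPM in Semaglutide (-2.75 ± 0.36, adjusted p = 1.6e-05), and Thrsp, a lipogenic factor under its control, at 48.1, 75.4, 18.9 and 21 CPM against 545, 401, 169 and 195 CPM (-2.999 ± 0.68, adjusted p = 0.00343). For both genes every Dicretin library lay below every Semaglutide library. Fatty acid synthase (Fasn) was measured at 523, 41.6, 21.9 and 14.7 CPM in Dicretin and at 129.6, 309, 97.4 and 171 CPM in Semaglutide (-0.23 ± 0.96, adjusted p = 0.88). Its Dicretin 14 value was above all Semaglutide values, while the other 3 Dicretin values were below them, and without Dicretin 14 Fasn was lower (-2.75, adjusted p = 0.0065). For the desaturase Scd1, Dicretin 14 again exceeded every Semaglutide library, at 7615, 1391, 169 and 318 CPM against 1344, 2470.3, 1007 and 778 CPM (0.76 ± 0.95, adjusted p = 0.58). Acaca, the carboxylase that starts the pathway and that was chosen after its values were seen, did not pass (-0.16 ± 0.53, adjusted p = 0.848) and was lower without Dicretin 14 (-1.3, adjusted p = 0.00672). With Semaglutide 11 and Dicretin 14 both left out, 2 lipogenic genes were higher and 9 lower, with a median of -0.71, and Fasn (-2.87, adjusted p = 0.0125) and Acaca (-1.48, adjusted p = 0.00627) were lower.

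Of 24 tested genes of cholesterol synthesis and uptake 2 were higher and 7 lower (median -0.53). The sterol carrier Stard4 fell from 102 ± 14.1 to 27.5 ± 19.3 CPM (-1.88 ± 0.39), the synthase Hmgcs1 from 117 ± 27.6 to 38.1 ± 9.24 CPM (-1.62 ± 0.38), and the log2 fold changes of the sterol sensor partner Insig1 and of squalene synthase (Fdft1) were -1.59 ± 0.26 and -1.17 ± 0.23 (largest adjusted p 0.00341). Insig2, a relative of Insig1 that was counted with the lipogenic genes, rose from 86.9 ± 21.1 to 211 ± 19.7 CPM (1.28 ± 0.18, adjusted p = 3.83e-05).

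Among 25 tested genes of triglyceride storage and lipid droplets 10 were higher and 5 lower. Pparg, which drives storage genes in fatty liver, stood at 2.52, 2.47, 2.3 and 2.08 CPM in Dicretin and at 5.85, 8.77, 10.8 and 8.33 CPM in Semaglutide (-1.84 ± 0.24, adjusted p = 1.13e-05). Both drugs lay below saline at 33.7 ± 7.68 CPM (adjusted p = 3.14e-09 and 4.6e-05). The droplet protein Fitm1 fell from 22.3 ± 5.14 to 6.41 ± 2.19 CPM (-1.79 ± 0.28), while Plin5, which tethers droplets to mitochondria, rose from 26.6 ± 6.73 to 86.4 ± 52.5 CPM (1.70 ± 0.32, adjusted p = 0.000584). Hsd17b13, a droplet enzyme, rose by 0.74 ± 0.14 (adjusted p = 0.000694). The common droplet coat gene Plin2, chosen after its values were seen, did not pass (0.22 ± 0.26, adjusted p = 0.557).

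Mitochondrial fatty acid oxidation was near the background, with 2 of 20 tested genes higher and 3 lower (median -0.02). Cpt2 rose by 0.64 ± 0.14 (adjusted p = 0.00147), and Cpt1a, the gate of the pathway and another gene chosen after its values were seen, did not pass (0.23 ± 0.18, adjusted p = 0.366). With Semaglutide 11 and Dicretin 14 both left out 6 genes were higher and 1 lower, and without either of them alone 1 was lower. In peroxisomal oxidation 2 of 22 tested genes were higher and 9 lower (median -0.34). The carnitine octanoyltransferase Crot fell from 557 ± 112 to 222 ± 79.1 CPM (-1.33 ± 0.28, adjusted p = 0.00153), while the carnitine acetyltransferase Crat rose from 35 ± 10.3 to 80.6 ± 7.45 CPM (1.21 ± 0.20, adjusted p = 0.000187). In ketone body formation 3 of 10 tested genes were higher and 5 lower. The enzymes Bdh1 and Acat1 were lower, at -0.86 ± 0.16 and -0.78 ± 0.17 (adjusted p = 0.000557 and 0.00152), and the transporter Slc16a6 rose by 1.91 ± 0.35 (adjusted p = 0.000363). The lower count was 3 without Semaglutide 31, Dicretin 23 or Dicretin 64.

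Bile acid genes were lower in Dicretin, with 14 of 25 tested members lower and 1 higher (median -0.78). Slco1a1, an uptake transporter for organic anions, stood at 7.77, 2.6, 3.32 and 4.33 CPM in Dicretin and at 544, 606, 450.0 and 578 CPM in Semaglutide (-6.90 ± 0.47, adjusted p = 9.33e-09). Saline lay between them at 53.9 ± 29.8 CPM, and the gene was -3.56 from saline in Dicretin and 3.34 in Semaglutide (adjusted p = 3.84e-06 and 0.000129). Cyp7a1, which catalyses the slowest step of bile acid formation, was measured at 1.34, 4.95, 0.407 and 11.3 CPM against 33.2, 94.1, 29.7 and 51.8 CPM (-3.59 ± 0.70, adjusted p = 0.00119). The groups did not overlap, and without Dicretin 65, the highest of its group, the log2 fold change was -4.55 (adjusted p = 0.00037). The sterol 12-alpha-hydroxylase Cyp8b1 did not pass, at 16.3, 31.3, 32.7 and 71.7 CPM against 32.3, 47.9, 18.6 and 60.1 CPM (-0.07 ± 0.47, adjusted p = 0.924). Both drug groups lay below saline at 353 ± 123 CPM. The transporters Abcc3 and Slco1b2 fell from 194 ± 35.2 to 50.3 ± 6.72 and from 1802 ± 328 to 593 ± 106 CPM, and the bile acid receptor gene Nr1h4 from 156 ± 10.7 to 81.7 ± 22.9 CPM (largest adjusted p 0.000407). Fgfr4, the receptor for the ileal hormone that represses Cyp7a1, was the higher member (0.81 ± 0.19, adjusted p = 0.00263), and its coreceptor gene Klb did not pass (0.06 ± 0.23, adjusted p = 0.864).

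Genes of both zones of the liver lobule changed. Of 20 tested pericentral genes, which mark hepatocytes near the central vein, 12 were lower and 3 higher (median -0.83). Of 20 tested periportal genes, which mark the opposite zone, 11 were higher and 3 lower (median 0.54), and that list shares urea cycle members. Glutamine synthetase (Glul) stood at 292, 463, 250.1 and 361 CPM in Dicretin and at 826, 1336, 1160.0 and 1053 CPM in Semaglutide (-1.68 ± 0.20, adjusted p = 6.67e-06). Cyp2e1 fell from 14485 ± 1075 to 3423 ± 1691 CPM (-2.08 ± 0.26) and Cyp1a2 from 494 ± 83.9 to 59.7 ± 20.6 CPM (-3.05 ± 0.25, adjusted p = 9.73e-06 and 4.82e-08). The zonal order had exceptions. Ornithine aminotransferase (Oat), a pericentral gene, rose from 531 ± 91.6 to 2141 ± 660.0 CPM (2.01 ± 0.25, adjusted p = 8.58e-06), and the Wnt target Lgr5 did not pass. In such bulk samples fewer cells of a type and less RNA per cell cannot be told apart.

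Among genes under CAR and PXR, receptors for foreign compounds, expression was lower in 10 and higher in 4 of 25 tested members (median -0.24). The gene of CAR itself, Nr1i3, stood at 2.62, 4.5, 12.1 and 17.2 CPM in Dicretin and at 57.3, 66.8, 60.3 and 43.1 CPM in Semaglutide (-2.67 ± 0.41, adjusted p = 0.000108). Cyp2c50 was measured at 31.3, 27.4, 7.05 and 38.5 CPM against 497, 768, 602 and 763 CPM (-4.66 ± 0.36, adjusted p = 2.78e-08) and Cyp2c37 at 42.6, 21.4, 5.15 and 59 CPM against 603, 600.5, 582 and 608 CPM (-4.23 ± 0.50, adjusted p = 8.34e-06). Ugt1a9 was higher, at 103 ± 36.8 against 3.52 ± 0.977 CPM (4.86 ± 0.41, adjusted p = 7.25e-08). The Cyp2c and Ugt1a genes have near-identical copies or shared exons, so that their single levels are uncertain.

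Hepatocyte genes that are known to be higher in male mice were lower in Dicretin in 14 of 22 tested members and higher in 0 (median -1.31). All 22 fitted log2 fold changes were below 0, so that 0 were higher at an unadjusted p under 0.05, and DESeq2 and limma-voom also called 0 higher and 16 lower. Hsd3b5, a steroid dehydrogenase, stood at 0.107, 0.317, 0.474 and 0.26 CPM in Dicretin and at 185, 239, 166 and 236 CPM in Semaglutide (-9.48 ± 1.14, adjusted p = 2.35e-05). Saline stood at 3.07 ± 3.43 CPM, nearer to Dicretin, and the gene was 6.12 from saline in Semaglutide and -3.35 in Dicretin (adjusted p = 0.00171 and 0.0441). Mup12, a major urinary protein gene, was measured at 2.04, 3.68, 3.18 and 6.32 CPM against 192, 183, 94 and 93.2 CPM (-5.24 ± 0.56, adjusted p = 3.79e-06). Hsd3b and Mup genes are families of near-identical copies. Female-biased genes split, with 5 of 14 tested members higher and 5 lower. Cyp17a1, the steroid 17-alpha-hydroxylase, rose from 13.8 ± 6.13 to 524 ± 210.4 CPM (5.24 ± 0.37, adjusted p = 1.02e-08), while the hydroxyacid oxidase Hao2 fell from 2.57 ± 1.79 to 0.203 ± 0.173 CPM (-3.54 ± 0.73, adjusted p = 0.00112), at -4.19 without Dicretin 23. Growth hormone signalling genes set the sex pattern of liver. Of 14 tested members 2 were higher (14.3%), 4 were lower (28.6%) and 8 did not pass, beside 14.8% and 17.1% of all genes tested. The members named here were all lower ones. The receptor gene Ghr fell from 679 ± 28.9 to 362 ± 73.3 CPM (-0.91 ± 0.14) and Stat5b from 40.7 ± 9.43 to 21.2 ± 4.03 CPM (-0.94 ± 0.19, adjusted p = 7.51e-05 and 0.000869). The STAT5-opposing repressor Bcl6 was measured at 2.79, 3.61, 4.2 and 3.9 CPM against 75.7, 89.7, 8.94 and 9.95 CPM (-3.67 ± 0.72, adjusted p = 0.00121), so that Semaglutide itself split into a high pair and a low pair, all above Dicretin.

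**Figure D4:**
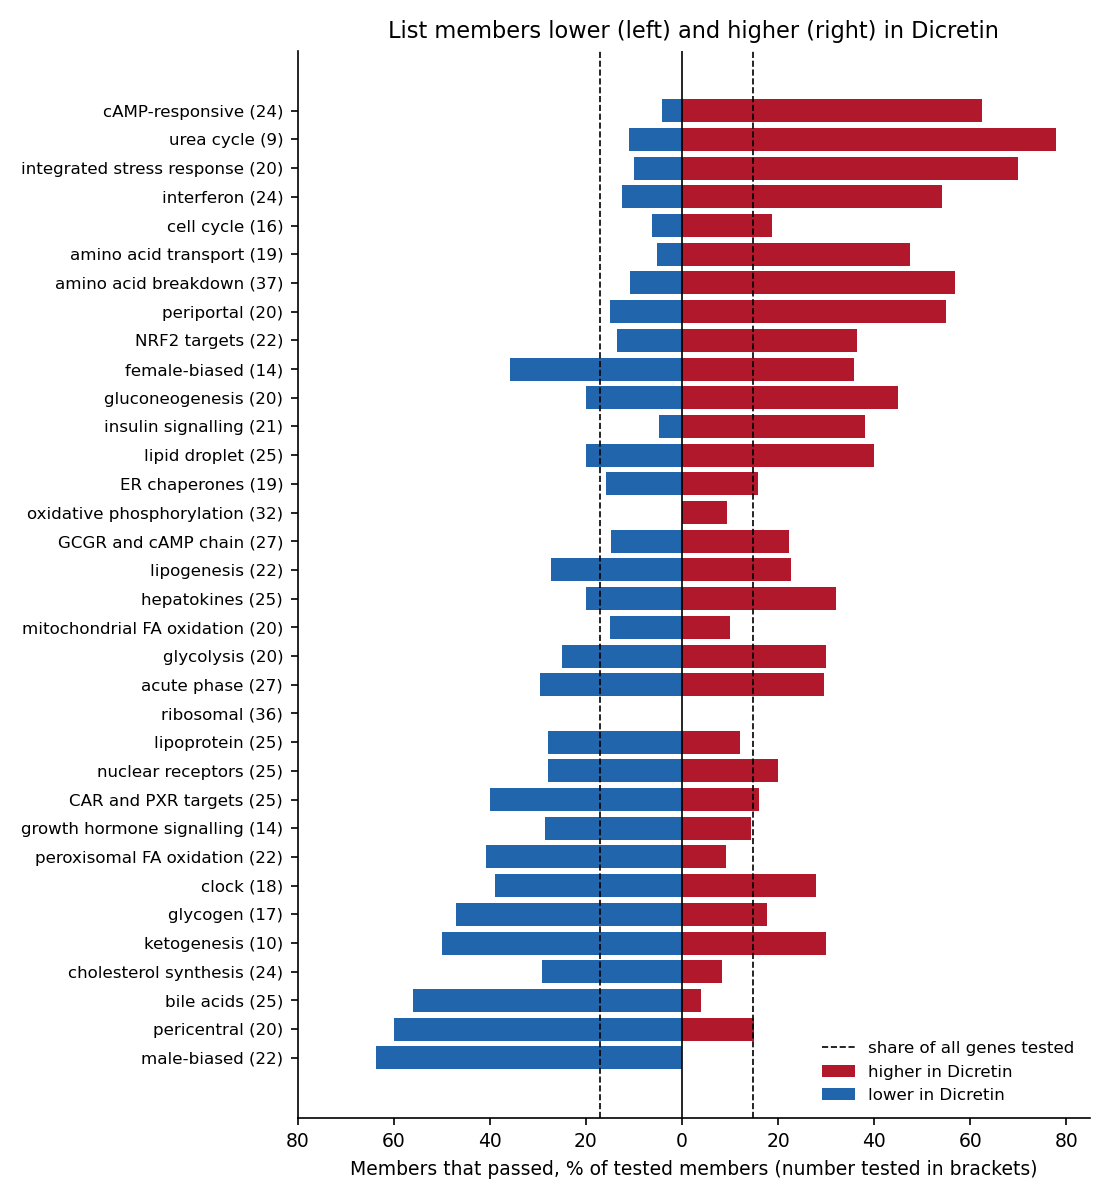
For each gene list, bars to the right and left give the share of tested members that were higher and lower in Dicretin, in percent, with the number tested in brackets and lists ordered by median log2 fold change. Dashed lines mark the shares over all genes tested (14.8% higher, 17.1% lower), and the cyclic AMP, urea cycle and integrated stress response lists stand at 62.5%, 77.8% and 70.0% higher. The lists were written with earlier results of these data known, so the shares are not a test.

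Nuclear genes of oxidative phosphorylation and cytosolic ribosomal proteins depended on Semaglutide 11 and Dicretin 14. With all 8 libraries, 3 of 32 oxidative phosphorylation genes were higher and 0 lower (median 0.16), and of 36 ribosomal protein genes 0 were higher and 0 lower by edgeR's test, by DESeq2 and by limma-voom, with 1 at an unadjusted p under 0.05. With both libraries left out, 24 of 32 (median 0.54) and 15 of 36 (median 0.38) were higher. Leaving out Semaglutide 11 alone gave 15 higher oxidative phosphorylation genes. The summed level of the 32 genes was 13795 CPM in Semaglutide 11 and 8163 to 9344 CPM in its mates, against 9806 CPM in Dicretin 14 and 12442 to 12930 CPM in its mates. For the ribosomal genes the sums were 21738 CPM in Semaglutide 11 and 9761 to 12258 CPM in its mates, against 8396 CPM in Dicretin 14 and 11485 to 15954 CPM in its mates. Atp5b, the catalytic subunit of ATP synthase, was among the 3 genes that passed with all libraries, at 1905, 2022, 1969.6 and 2011 CPM against 1487, 1373, 1291 and 1301 CPM (0.54 ± 0.12, adjusted p = 0.00168). Semaglutide 11 and Dicretin 14 are also the libraries that deviate most by gene length. Dicretin 64 and 65 deviated as well, at 0.172 and 0.175 for short genes and at -0.199 and -0.209 for long genes. They remained when both libraries were left out, so that setting does not remove all deviation by length. With the trend on gene length removed from every library, an alternative added after the data had been seen, 13 oxidative phosphorylation genes and 1 ribosomal gene were higher. What set Semaglutide 11 and Dicretin 14 apart was not tested.

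**Figure D5:**
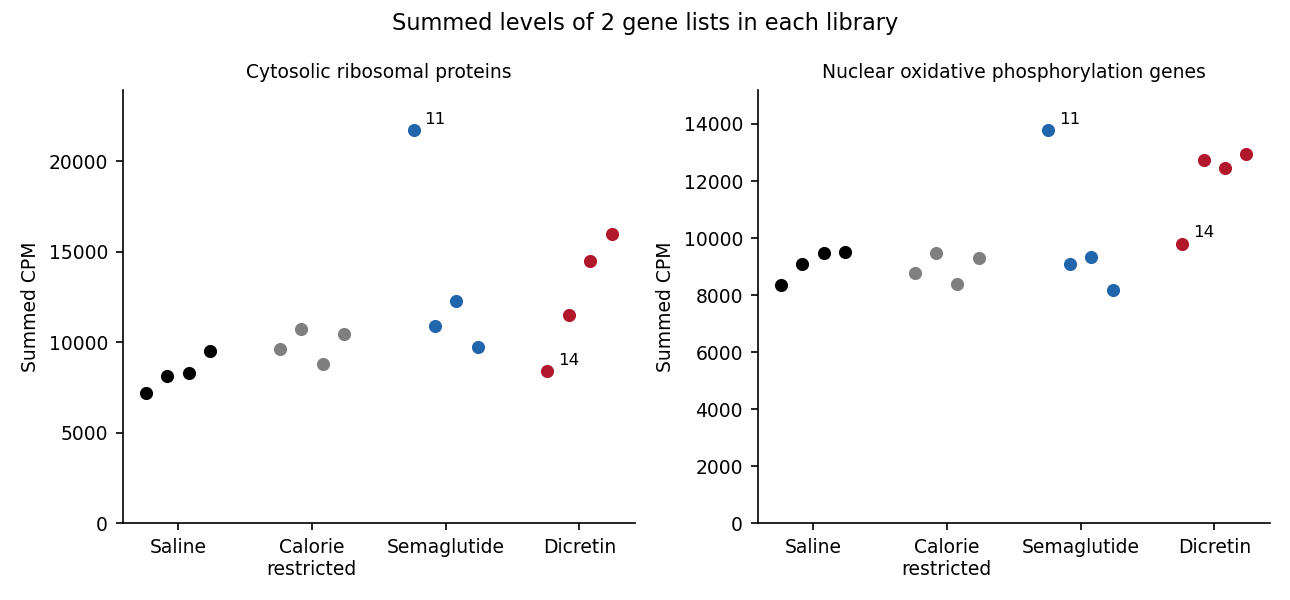
Summed CPM of 36 cytosolic ribosomal protein genes (left) and of 32 nuclear oxidative phosphorylation genes (right) on the y axis, with 1 point per library in the 4 groups on the x axis. Semaglutide 11 (21738 and 13795 CPM) lies above its mates and Dicretin 14 (8396 and 9806 CPM) below its mates in both panels.

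The count of insulin signalling genes also depended on Dicretin 14. Of 21 tested members 8 were higher and 1 lower, but 4 were higher without Dicretin 14 and 3 with Semaglutide 11 left out too. Inppl1, a phosphatase that limits the signal, rose from 20.2 ± 5.6 to 41.6 ± 9.46 CPM (1.04 ± 0.20, adjusted p = 0.000605) and Akt1 by 0.53 ± 0.13 (adjusted p = 0.00451). The insulin receptor gene Insr did not pass (-0.06 ± 0.22, adjusted p = 0.865). The substrate genes Irs1 and Irs2 passed (1.46 ± 0.41 and 1.996 ± 0.56, adjusted p = 0.0111 and 0.0117) and did not without Dicretin 14 (0.82 and 1.54, adjusted p = 0.0796 and 0.0513) or with both libraries left out (0.58 and 1.21, adjusted p = 0.156 and 0.0887).

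Markers of hepatocytes and of other liver cells were measured beside these differences. Hepatocyte markers were abundant in all libraries, and their sum ranged from 92181 to 110156 CPM in Dicretin and from 123388 to 151480 CPM in Semaglutide. Albumin (Alb) stood at 59616 ± 10120.0 and 94289 ± 5981 CPM (-0.66 ± 0.15, adjusted p = 0.0022), and 3 of the 10 markers were higher and 3 lower. Of 12 Kupffer cell markers 1 was higher (8.33%, beside 14.8% of all genes tested). An unadjusted p under 0.05 in either direction was found for 5361 of all 12910 genes. It was found for 7 of these 12 markers, all of them with higher values in Dicretin (median of the 12 markers 0.80). Their summed levels were 265.3 to 734 CPM in Dicretin and 130.4 to 463 CPM in Semaglutide. The marker that passed, the scavenger receptor Cd163, stood at 18.5, 7.73, 9.42 and 11.3 CPM against 3.97, 2.21, 2.07 and 7.01 CPM (1.62 ± 0.41, adjusted p = 0.00555), and 4 markers were higher without Semaglutide 11 or without Dicretin 23. With Semaglutide 11 and Dicretin 14 both left out 3 were higher, with a median of 1.29. Of 12 markers of lipid-associated and recruited macrophages 4 were higher (33.3%), and 2 without Semaglutide 15, Semaglutide 51 or Dicretin 65. Mmp12, a macrophage elastase, stood at 0.589, 2.66, 6.37 and 8.57 CPM against 0.3, 0.621, 0.324 and 0 CPM (3.84 ± 0.98, adjusted p = 0.00638), with overlap between the groups. The summed levels of that list overlapped, at 125.7 to 239 and 112.7 to 251 CPM. Of 12 sinusoidal endothelial markers 2 were higher (16.7%, near the 14.8% of all genes tested), among them Lyve1 (2.02 ± 0.30, adjusted p = 4.69e-05). The count was 4 without Semaglutide 51 and 5 without Dicretin 23. Of 7 cholangiocyte and 9 lymphocyte markers tested, 0 passed by edgeR, DESeq2 or limma-voom, and 0 and 1 had an unadjusted p under 0.05. The part of these cells in the other results was not tested.

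Single libraries carried transcripts of other tissues. Semaglutide 15 held skeletal muscle genes, with Acta1 at 229.3, Myh1 at 230.6 and Ckm at 77.6 CPM, and the other 7 libraries held at most 0.15 CPM of any of them. The stellate and muscle gene Des followed, at 61 CPM in that library and 2.41 to 6.15 CPM in the others, and its call (-2.47 ± 0.70, adjusted p = 0.0134) was lost without Semaglutide 15 (-0.59, adjusted p = 0.111). Dicretin 64 held pancreatic enzymes, with Prss2 at 178.5, Pnlip at 241.1 and Cpa1 at 134.3 CPM, of which no other library held more than 0.41 CPM. The elastase gene Cela1 stood at 6.32, 10.6, 148 and 7.27 CPM in Dicretin and at 81.3, 50.3, 46.5 and 28 CPM in Semaglutide and did not pass (-0.26 ± 0.81, adjusted p = 0.842), but was lower without Dicretin 64 (-2.67, adjusted p = 2.12e-05). The muscle and pancreas genes were chosen after their values were seen.

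The largest increases were in genes that Semaglutide livers hardly transcribed. Wnt10a, a Wnt ligand gene (chromosome 1, 74791516 to 74804179, GRCm38), stood at 18.9, 16.1, 18.6 and 16.2 CPM in Dicretin and had 1 count in all of Semaglutide against 1067, a ratio of 1040 with a 95% counting interval of 186 to 41100. Renin (Ren1) stood at 18.7, 20.1, 8.2 and 11.1 CPM in Dicretin, with 916 counts against 1 (ratio 893, interval 160 to 35300). These intervals cover counting error only. The metalloprotease gene Pappa2 had 0 counts in Semaglutide and stood at 13.9, 2.6, 4.27 and 3.46 CPM in Dicretin. By a floor of 3 counts over the group it was 131-fold higher, or 67.6-fold without Dicretin 14. The lower end of its 95% counting interval was 106-fold. The kinase gene Stk33 had 0 counts as well and stood at 2.14, 1.27, 5.22 and 6.06 CPM. It was 67.3-fold higher by that floor, or 55-fold without Dicretin 65, and its interval began at 54.2-fold. Thyroglobulin (Tg), the thyroid hormone precursor, was measured at 5.36, 5.58, 9.28 and 14.5 CPM against 0.15, 0, 0.194 and 0.0626 CPM (6.30 ± 0.57, adjusted p = 8.49e-07). Other markers of kidney, adrenal and thyroid were low or absent: Slc34a1, Aqp2, Cyp11b1 and Kap had 0 counts in the 8 libraries. Of 10 such markers 3 were tested. Tg and Ren1 passed, and the remaining marker did not, at a log2 fold change of 0.99. All 3 were higher at an unadjusted p under 0.05 by edgeR. Tnfaip6, a hyaluronan-binding protein gene, had 270 counts against 3 (ratio 87.7, interval 29.7 to 428).

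Metallothionein Mt2 was the most abundant gene among the 12 largest increases, at 353, 445, 410.1 and 381 CPM in Dicretin and at 6.22, 3.11, 8.23 and 3.44 CPM in Semaglutide (6.24 ± 0.36, adjusted p = 1.43e-09). Saline lay between at 96.3 ± 22.2 CPM, and Mt2 was 2.05 from saline in Dicretin and -4.20 in Semaglutide (adjusted p = 3.32e-05 and 2.38e-06). Tuba8, a tubulin gene, rose from 0.913 ± 1.06 to 89 ± 10.2 CPM (6.59 ± 0.50), and without Semaglutide 15, which held 2.49 CPM, its log2 fold change was 7.77 (adjusted p = 5.66e-09). The remaining genes among the 6 smallest p were the antiproliferative gene Btg3, at 165, 83.7, 113 and 97.9 CPM against 6.37, 3.31, 4.99 and 4.82 CPM (4.56 ± 0.25, adjusted p = 7.93e-10), and the sodium pump subunit Atp1b1, at 419, 369.9, 507 and 512 CPM against 64.4, 71.2, 65.4 and 58 CPM (2.80 ± 0.16, adjusted p = 1.05e-09). The groups did not overlap for any of these genes, as for 26.2% of all genes tested. The naming rule required this of the largest increases, so it adds nothing for them.

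The largest decrease was in Rgs16 (chromosome 1, 153740349 to 153745468), which encodes a protein that ends G protein signals. It stood at 0.375, 0.317, 0.136 and 0.173 CPM in Dicretin and at 352, 374, 195 and 286 CPM in Semaglutide (-10.13 ± 0.57, adjusted p = 1.43e-09). Rgs16 was 216 ± 73.8 CPM in saline and 6.45 ± 4.11 CPM in calorie restriction, and the log2 fold change of Semaglutide minus calorie restriction was 5.56 (adjusted p = 5.91e-07). Arrdc3, an arrestin-domain gene that limits beta-adrenergic signals, was measured at 6.86, 4.56, 5.42 and 7.71 CPM against 322, 325, 229 and 459 CPM (-5.77 ± 0.56, adjusted p = 1.4e-06). Depp1, a target of FOXO factors, stood at 0.375, 1.58, 1.22 and 1.13 CPM against 123, 71.7, 51.9 and 70.0 CPM (-6.22 ± 0.77, adjusted p = 2.17e-05). The lectin gene Clec2h had 1 count in Dicretin, in library 14, against 861 (ratio 883, interval 158 to 34900). Hectd2os, an antisense gene whose reads cannot be told from its partner's where strand was not used, fell from 15.6 ± 2.79 to 0.249 ± 0.188 CPM (-5.86 ± 0.36, adjusted p = 2.01e-09). Lmod2, a muscle gene, had 0 counts in Dicretin. By a floor of 3 counts it was 60.2-fold lower, with a counting interval from 48.4-fold, but only 16.3-fold lower without Semaglutide 15, the library with muscle transcripts.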

How the data were processed

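The authors deposited a table of unnormalized counts, as whole numbers, for each gene: a matrix of 46078 genes and 16 libraries. RNA was extracted with Trizol and made into poly(A)-selected directional libraries, per the labels' protocols. The submitters' processing notes name TopHat2 2.1.1, featureCounts and the build mm10, and neither the strand setting nor the annotation release is known from the labels. Overlapping, antisense and near-identical genes are therefore uncertain.

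Groups came from the sample titles, and every column matched 1 sample by its number. Genes passing filterByExpr (12910) were fitted in R 4.3.3 with edgeR 4.0.16 (TMM scaling, robust quasi-likelihood, 4 group means over all 16 libraries), and Dicretin was tested against Semaglutide at an adjusted p under 0.05. Totals of 12.229 to 16.66 M counts in the 8 libraries limit the precision for genes with few counts. The code was tested on simulated data with known changes. Alternatives were DESeq2 1.42.0, limma-voom 3.58.1, other scalings and filters, the 2 groups alone, each library left out, Semaglutide 11 and Dicretin 14 both left out and, added after seeing the data, removal of a loess trend on gene length.

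Named genes were the 12 largest increases and decreases with groups that do not overlap and at least 2 CPM, up to 5 members with the smallest p of each list, a panel, and the 6 smallest p of all; some are not reported here. Members and lists were chosen with earlier results of these data known. List members named beyond this rule were chosen after their values were seen.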

Additional observations from a re-analysis of the deposited data

Results flagged for a closer look

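Within each group of 4 libraries, the highest or lowest value was compared with its nearest neighbour by Dixon's ratio for 149 genes, and 21 of 298 groups stood out, where chance gives about 1 in 20. That rate does not hold for groups with very few reads, where a single read sets the ratio. Clec2h in Dicretin and Ren1 and Wnt10a in Semaglutide had 1 count each, and Tnfaip6 had 3 counts in Semaglutide. These flags say nothing about the library. No cause of these values was tested.

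In Dicretin 14 the value was far from its group for Acaca (172 CPM), Fasn (523 CPM), Scd1 (7615 CPM) and Pappa2 (13.9 CPM). Clec2h (0.0536 CPM) was flagged there on 1 count. Dicretin 64 was far from its group for Asns (25.7 CPM) and Cela1 (148 CPM). Dicretin 23 was apart for Slc16a6 (9.26 CPM) and Crtc2 (36.7 CPM).

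In Semaglutide 51 the value was apart for Got1 (239 CPM), Lepr (23.4 CPM), Arntl (2.57 CPM) and Wnt10a (0.0626 CPM). Semaglutide 15 was apart for Des (61.0 CPM), Lmod2 (9.67 CPM) and Cyp1a2 (618 CPM). Semaglutide 31 was apart for Stard4 (81.0 CPM), Ren1 (0.0648 CPM) and Tnfaip6 (0 CPM), and Semaglutide 11 for Otc (962 CPM) and Prodh2 (399.0 CPM).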

How the results depend on the processing

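Fitting only the 2 groups gave 2658 passing genes, 1216 higher and 1442 lower, the one setting that moved these counts by more than 1.5 times. It also took the higher counts of interferon-stimulated genes from 13 to 6, of insulin signalling from 8 to 4, of lipid-associated macrophage markers from 4 to 2, and of endoplasmic reticulum chaperones and oxidative phosphorylation from 3 to 1 each. The lower counts went from 8 to 5 for acute-phase proteins, from 5 to 3 for lipid droplets and for ketone body formation, and from 3 to 1 for mitochondrial fatty acid oxidation. The other alternatives gave 3580 to 4565. Leaving out each library in turn gave 3580 to 4240 genes, 1668 to 2013 higher and 1902 to 2227 lower. Of the passing genes 46.4% were higher, and 52.7% with the gene-length trend removed. Among the genes named in the text none changed sign with a call under the 18 alternatives. Calls that changed were those of Otc, Irs1, Irs2, Des, Fos, Fasn, Acaca and Cela1; the causes were not tested. No paired analysis was possible because no replicate number is shared between the groups. With 4 animals a group, the main p-values rest on a spread between animals estimated over all 16 libraries. They do not rest on the 8 compared libraries alone.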

Other observations

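Genes of the circadian clock differed in both directions, with 5 of 18 tested members higher and 7 lower in Dicretin. Arntl, which encodes the clock activator BMAL1, stood at 30.7, 11.9, 12.3 and 16 CPM in Dicretin and at 0.225, 0.414, 0.518 and 2.57 CPM in Semaglutide (4.20 ± 0.58, adjusted p = 3.11e-05), and its log2 fold change was 5.49 without Semaglutide 51. Per3, a repressor of the loop, fell from 33.2 ± 11.1 to 3.4 ± 1.42 CPM (-3.28 ± 0.34, adjusted p = 1.15e-06). The repressor Bhlhe41 was lower (-3.06, adjusted p = 4.15e-05). The output factor Dbp was lower as well (-2.48, adjusted p = 4.65e-05), and the repressor Nfil3 rose by 2.11 ± 0.24 (adjusted p = 2.52e-06). The labels give no time of day for the collection of the livers.

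Interferon-stimulated genes were higher for 13 and lower for 3 of 24 tested members (median 0.85). Usp18, which removes the ubiquitin-like protein ISG15, rose from 9.81 ± 0.784 to 36.4 ± 23.6 CPM (1.89 ± 0.32, adjusted p = 0.000186), while the GTPase gene Ifi47 was lower (-1.14, adjusted p = 0.00516). The higher count was 7 without Semaglutide 31 or without Dicretin 65, and 6 with only the 2 groups fitted. Acute-phase and plasma proteins passed in both directions, 8 higher and 8 lower of 27 tested, with hemopexin (Hpx) at 1.61 ± 0.25 (adjusted p = 9.43e-05). The lower count was 5 without Semaglutide 31, and with Semaglutide 11 and Dicretin 14 both left out. Of 22 tested targets of the antioxidant factor NRF2, 8 were higher and 3 lower, with heme oxygenase (Hmox1) at 2.17 ± 0.26 and Osgin1 at -1.97 ± 0.29 (adjusted p = 5.31e-06 and 5.01e-05). In the lipoprotein list 3 of 25 tested members were higher and 7 lower, and 5 were higher and 6 lower with Semaglutide 11 and Dicretin 14 both left out. Apoa4, an apolipoprotein gene of liver and intestine, rose from 211 ± 45 to 2292 ± 981 CPM (3.44 ± 0.36, adjusted p = 1.05e-06), and the cell cycle inhibitor gene Cdkn1a rose from 1.35 ± 0.372 to 27.8 ± 21.8 CPM (4.35 ± 0.79, adjusted p = 0.000601).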
